A study of Homo sapiens with 6 samples.

Results

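The lysyl oxidase family comprises 5 genes, LOX, LOXL1, LOXL2, LOXL3 and LOXL4, among the 57445 genes quantified in MDA-MB-231 cells. The members were matched by gene symbol. The family had however been chosen by the TPM values of these same 6 libraries and the contrast of its conditions, so its levels and differences are given as a description. All 5 genes were found in the deposited table, each under a single Ensembl identifier. Of these, 4 reached at least 1 TPM in at least 3 libraries and entered the fit across 16554 genes, whereas LOXL4 did not. TPM is a measure of abundance scaled to the length of each gene and to the total of the library, and levels of different genes can therefore be compared.

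Lysyl oxidases are copper-dependent amine oxidases. They convert lysine residues of collagen and elastin into reactive aldehydes, from which the covalent crosslinks of the extracellular matrix form. LOX and LOXL1 are secreted as pro-enzymes and cleaved outside the cell, while LOXL2, LOXL3 and LOXL4 carry scavenger receptor domains in front of the catalytic part. In breast cancer, members of the family are known for stiffening the matrix and for their relation to invasion, and LOX is a known target of the hypoxia-inducible factors.

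MDA-MB-231 is a long-established line of triple-negative breast cancer cells. Both conditions carried a stably integrated pGIPZ lentiviral vector introduced at a multiplicity of infection of 5, and both were selected with 2 µg/ml puromycin. The control condition (shCTL, 3 libraries) expressed a non-silencing shRNA and the knockdown condition (shRor1, 3 libraries) a shRNA against Ror1, a receptor of the non-canonical Wnt pathway, in order to follow gene expression after loss of this receptor. Whether the cells of a condition were 1 clone or a pool, and whether libraries came from separate cultures, is not stated, so the errors given here measure the spread between libraries, which may be technical. The sample labels call the control an empty vector and the RNA polyadenylated, whereas the methods of the study name a non-silencing shRNA and total RNA. In the table, the control columns but not the knockdown columns are headed with the word DMSO, so treatment with this solvent and the shRNA cannot be told apart. Columns carry no replicate number, and libraries are named by their order in the table.

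All members share a catalytic domain with a short copper-binding stretch, and its coding sequence is shown because it is what the rule by symbol did not use and what makes the genes a family. In each of the 5 canonical transcripts the stretch was found once, as codons for histidine, any residue, cysteine, histidine, any residue, histidine, tyrosine and histidine, written from 5′ to 3′ on the coding strand with the histidine codons in capitals.
LOX: CACagttgtCATcaaCATtacCAC
LOXL1: CACagctgcCACcagCATtacCAC
LOXL3: CACgagtgcCATgggCATtacCAC
LOXL4: CACcagtgcCACaggCATtacCAC
The sequences come from GENCODE 44 transcripts on GRCh37, and the stretch of LOXL2 is not printed. Over the 24 bases, LOX and LOXL1 were identical at 20 positions and LOXL3 and LOXL4 at 21, whereas LOX shared 17 with LOXL3 and 16 with LOXL4. LOXL1 lay between, with 18 positions identical to LOXL3 and 19 to LOXL4, so that LOXL1 differed by 1 position in its identity to LOX and to LOXL4. In all 5 genes the stretch was interrupted by an intron at the same place, after base 14. In transcripts of 62296 annotated genes, read on the transcript strand in any frame, the same codon pattern occurred in 7 genes, the 5 members and PKD1L2 and SDR16C5.

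The stretch lies in coding exons. In LOX, on the minus strand of chromosome 5, it covers chr5:121411099-121411112 in exon 3 and chr5:121409855-121409864 in exon 4 of 7. In LOXL1, on the plus strand of chromosome 15, it covers chr15:74238882-74238895 in exon 3 and chr15:74239408-74239417 in exon 4 of 7. In LOXL3, on the minus strand of chromosome 2, it covers chr2:74761658-74761671 in exon 10 and chr2:74761549-74761558 in exon 11 of 14. In LOXL4, on the minus strand of chromosome 10, it covers chr10:100013310-100013323 in exon 11 and chr10:100012216-100012225 in exon 12 of 15. The coding sequence is shortest in LOX, with 417 codons before the stop codon, and has 574 in LOXL1, 774 in LOXL2, 753 in LOXL3 and 756 in LOXL4. Despite the common domain, no window of 50 bases, the length of the sequenced reads, was shared between transcripts of any 2 members, so an exactly matching read of 50 bases cannot be divided between them.

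Reads can be shared with genes other than members. LOXL3 (chr2:74759385-74782817) overlaps HTRA2 and DOK1 on the opposite strand, and 19.8% of its 50-base windows also occur there in reverse complement. HTRA2, a mitochondrial protease, had from 24.3 to 27.7 TPM per library, far above LOXL3. The corresponding share was 5.56% for LOXL1 (chr15:74218330-74244478), all of it with LOXL1-AS1, and 1.62% for LOX (chr5:121398890-121414108), which overlaps SRFBP1. It was 2.42% for LOXL2, and 3.02% for LOXL4 (chr10:100007447-100027951). LOXL1-AS1, a long non-coding RNA with 15.03, 15.05 and 17.04 TPM in shCTL and 14.44, 16.27 and 18.14 TPM in shRor1, was more abundant than LOXL1 in every library. SRFBP1 had from 17.6 to 21.4 TPM per library, in the range of LOX. The log2 fold changes of these neighbours were 0.046 for LOXL1-AS1, 0.025 for SRFBP1, 0.062 for HTRA2, 0.026 for DOK1, 0.11 for ENTPD4 and -0.049 for LOXL2-AS1. On the same strand, among the members, only LOXL2 shared windows with other genes, 1.35%, mostly with ENTPD4. The library kit keeps the strand, but the strand setting of the counting is not given in the sources used here, so antisense reads in these values cannot be told apart.

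The targeted gene was examined first. ROR1 had 15.4, 13.5 and 20.6 TPM in shCTL and 9.34, 11.9 and 14.9 TPM in shRor1, so that the mean was 73% of the control while the ranges overlapped (log2 fold change -0.43, standard error 0.20, adjusted p = 0.984 from limma). These are RNA levels, whereas the study showed the knockdown of the Ror1 protein by Western blot. Among markers of the cell line, VIM, CD44, CAV1, AXL and MET had from 49.8 to 2920 TPM in every library, whereas of 5 luminal markers ESR1 and PGR had at most 0.21 TPM and 0.01 TPM. The other luminal markers were detected, with 3.83 to 4.69 TPM for GATA3, 3.72 to 5.45 TPM for FOXA1 and 0.8 to 1.47 TPM for CDH1, so that GATA3 and FOXA1 lay above LOXL3. Fibroblasts are a rich source of lysyl oxidases, and the summed level of 5 fibroblast markers was from 3.44 to 4.15 TPM in shCTL and from 3.35 to 5.09 TPM in shRor1. Of these markers, PDGFRB had 1.66 to 3.18 TPM and DCN 0.76 to 1.38 TPM per library. PDGFRA had at most 0.59 TPM and THY1 at most 0.09 TPM, and LUM was listed at 0 in all 6 libraries. From 16036 to 17033 genes reached 1 TPM per library, and no pair of libraries had the same value for more than 0.441% of the tested genes.

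LOXL2 was by far the most abundant member. It had 128, 127 and 163 TPM in shCTL and 133, 118 and 164 TPM in shRor1, and 93.2% of the tested genes had a lower mean. LOX, the founding member of the family, had 13.7, 10.1 and 16.4 TPM in shCTL and 15.9, 15.4 and 22.5 TPM in shRor1. LOXL1, an enzyme known for its part in elastic fibre formation, had 8.58, 10.1 and 13.7 TPM in shCTL and 9.36, 8.81 and 14.1 TPM in shRor1. Both lay near the middle of the tested genes, with 54.0% of genes below LOX and 46.4% below LOXL1. LOXL3 had 2.90, 2.34 and 2.35 TPM in shCTL and 2.88, 2.02 and 2.45 TPM in shRor1. LOXL4 had 0.38, 0.24 and 0.83 TPM in shCTL and 0.25, 0.29 and 1.18 TPM in shRor1, and thus passed 1 TPM in a single library.

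The order LOXL2, LOX, LOXL1, LOXL3, LOXL4 was the same in each of the 6 libraries. LOXL2 exceeded LOX by 7.29-fold to 12.6-fold within a library. LOX and LOXL1 were the closest neighbours, with a ratio from 1.00 to 1.74, and their ranges over the libraries overlapped. LOXL1 exceeded LOXL3 by 2.96-fold to 5.81-fold and LOXL3 exceeded LOXL4 by 2.08-fold to 11.5-fold, in both cases without overlap of the ranges. 

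**Figure D1:**
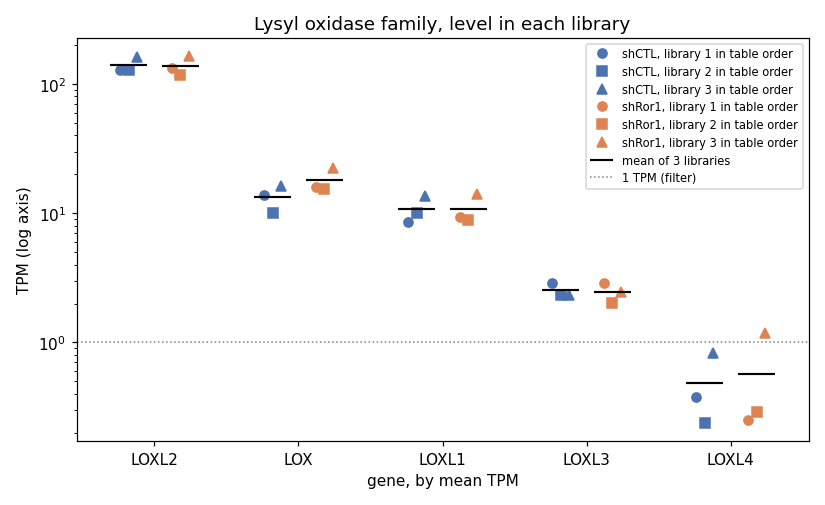
TPM on a log axis of the 5 genes in the 3 shCTL (blue) and 3 shRor1 (orange) libraries, with the marker giving the order of the library in the table and the bar the mean of 3. LOXL2 lies between 118 and 164 TPM, above LOX and LOXL1, and LOXL4 lies below 1 TPM in all libraries but the third shRor1 library.

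In the comparison of shRor1 with shCTL, LOX was the member with the largest difference. Its mean of 13.4 ± 3.14 TPM in shCTL stood against 17.9 ± 3.98 TPM in shRor1 (SD, n = 3 each), or 134% of the control. The groups overlapped, since the third shCTL library lay above the first and the second shRor1 library. The log2 fold change was 0.40 (standard error 0.20, 95% interval from -0.07 to 0.86, adjusted p = 0.984 from limma) on the log2(TPM + 1) scale, which understates changes of low genes. The exact permutation test of 3 against 3 libraries gave a two-sided p of 0.3 for LOX, where the smallest possible value is 0.1. Among all tested genes, 2.36% had a higher log2 fold change than LOX and 3.59% a larger absolute one, and the median over all genes was 0.05. LOX is singled out here as the member with the largest difference, so these shares are no test.

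LOXL1, LOXL2 and LOXL3 showed nearly the same mean in both conditions. LOXL2 had 139.6 ± 20.2 TPM in shCTL and 138 ± 23.4 TPM in shRor1 (SD, n = 3 each), with a log2 fold change of -0.016 and a 95% interval from -0.35 to 0.32. On the linear scale of TPM + 1, this interval runs from 0.785-fold to 1.25-fold, so changes of LOXL2 within these limits remain compatible with the data. The interval is not a limit of detection, since the adjustment over all tested genes asks for more. LOXL1 had 10.8 ± 2.61 TPM in shCTL and 10.8 ± 2.93 TPM in shRor1 (SD, n = 3 each), and its interval from -0.50 to 0.49 was the widest of the tested members. LOXL3 had 2.53 ± 0.320 and 2.45 ± 0.43 TPM (SD, n = 3 each), with a log2 fold change of -0.037 and an interval from -0.38 to 0.30. LOXL4, which was not tested, had 0.483 ± 0.308 and 0.573 ± 0.526 TPM (SD, n = 3 each), or 119% of the control, and the third library of each condition set its mean. The signs of the differences of LOXL1, LOXL2, LOXL3 and LOXL4 turned when single libraries were left out, in contrast to LOX.

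None of the 4 tested members passed the threshold. With limma and Benjamini-Hochberg adjustment over all 16554 genes, 0 genes had an adjusted p below 0.05, a background of 0%, and the adjusted p of the members ran from 0.984 to 0.997. At the unadjusted level, 472 genes passed 0.05, 2.85% of those tested (2.31% higher and 0.544% lower in shRor1), and again 0 of the 4 members. The groups did not overlap for 7.78% of all tested genes (6.48% higher and 1.3% lower in shRor1) and for 0 of the 5 members.

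**Figure D2:**
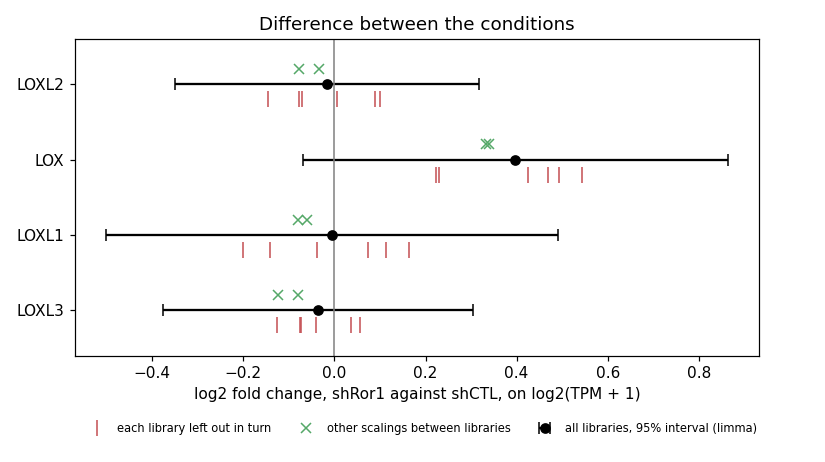
Log2 fold change of shRor1 against shCTL on log2(TPM + 1) for the 4 tested members, with the 95% interval of limma, the values with each library left out in turn (red ticks) and with quantile or median ratio scaling (green crosses). LOX stays between 0.22 and 0.54, while LOXL1, LOXL2 and LOXL3 fall on both sides of 0.

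The summed level of the family was similar in both conditions. It was 154, 150.1 and 196 TPM in shCTL and 161, 145 and 204 TPM in shRor1, with the third library highest in either condition. The means were 167 ± 25.5 TPM (SD, n = 3) and 170.1 ± 30.8 TPM (SD, n = 3), and the difference in log2 of the sum was 0.024 (exact two-sided permutation p = 0.8). The sum follows LOXL2, and its sign turned to -0.0048 after quantile normalization and to -0.038 after median ratio scaling. Without LOXL2, the other 4 members summed to 27.2 ± 5.40 TPM in shCTL and 31.7 ± 7.47 TPM in shRor1 (SD, n = 3 each).

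The composition of the family was described next. LOX made up 8.91%, 6.74% and 8.35% of the family total in the shCTL libraries and 9.86%, 10.6% and 11.02% in the shRor1 libraries. The LOX share was thus higher in each shRor1 library than in any shCTL library. Of the 16550 tested genes outside the family, 3.56% had a ratio to the family total that was likewise higher without overlap, and 0.816% one that was lower. The shares were formed from the values that chose the family and are a description. LOXL2 made up 83.4%, 84.8% and 83.1% in shCTL and 82.4%, 81.7% and 80.3% in shRor1, lower in shRor1. Since the shares add up to the whole family, the LOXL2 share is not separate from the LOX share, and the TPM of LOXL2 itself overlapped between the conditions. The shares of LOXL1 (5.57% to 6.96%), LOXL3 (1.198% to 1.88%) and LOXL4 (0.155% to 0.578%) overlapped between the conditions.

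Set against LOXL2 in the same library, LOX reached 10.7%, 7.95% and 10.1% of the LOXL2 level in shCTL and 11.97%, 12.99% and 13.7% in shRor1. The mean ratio was 9.56 ± 1.43% (SD, n = 3) in shCTL and 12.9 ± 0.882% (SD, n = 3) in shRor1, a log2 difference of 0.44 (exact two-sided permutation p = 0.1, which is the minimum for 3 against 3). This ratio was formed after the values were seen, from the values that chose the family, and is no independent test. Of the other 16553 tested genes, 5.61% had a ratio to LOXL2 that was higher in every shRor1 library than in every shCTL library, and 0.628% one that was lower. The ratios of LOXL1 and LOXL3 to LOXL2 overlapped, with log2 differences of 0.011 and -0.037.

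**Figure D3:**
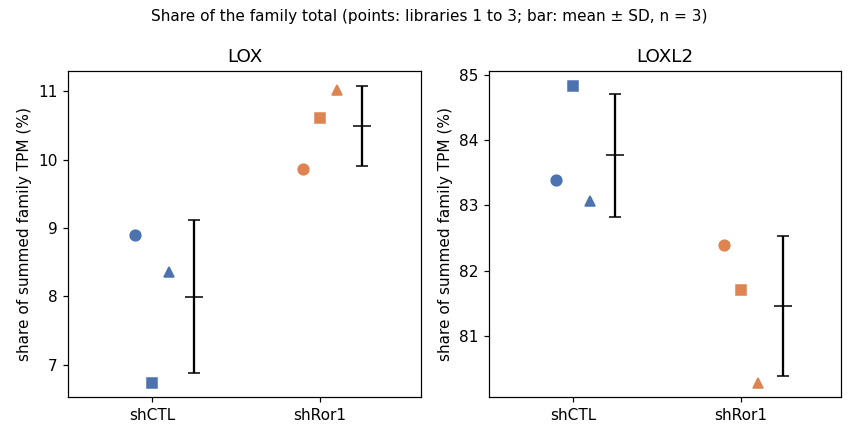
Share of LOX (left) and LOXL2 (right) in the summed TPM of the 5 genes, in percent, for 3 libraries per condition with the mean ± SD beside them. The vertical axes do not start at 0. The LOX share is 6.74% to 8.91% in shCTL and 9.86% to 11.02% in shRor1.

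The spread of most members followed the order of the libraries in the table, a pattern noticed after the values were seen. LOX, LOXL1, LOXL2 and LOXL4 were highest in the third library of shCTL and also highest in the third library of shRor1. On log2(TPM + 1), the third library exceeded the mean of the first 2 by 0.44 in shCTL and 0.50 in shRor1 for LOX. For LOXL1 these differences were 0.51 and 0.59, and for LOXL2 they were 0.35 and 0.39. For LOX, this spread within a condition was as large as the difference between the conditions. LOXL3 differed from the other members, with -0.11 and 0.011. Over all tested genes the median differences were 0.072 and 0.078, and 33.6% of genes were highest in the third library of both conditions, compared with 3 of the 4 tested members.

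Some other measures of the libraries were also highest in the third library of each condition. Between the first and the second shRor1 library, the mitochondrial share rose from 7.57% to 9.35%. LOX, LOXL1, LOXL2 and LOXL3 were lower in the second, with 133 and then 118 TPM for LOXL2. LOXL4 was higher in the second, with 0.25 and then 0.29 TPM. In shCTL, the mitochondrial share and LOXL1 both rose from the first to the second library, while LOX, LOXL2, LOXL3 and LOXL4 fell. The third library had the most genes at 1 TPM in each condition, 16597 in shCTL and 17033 in shRor1, and the largest share of mitochondrial transcripts, 9.61% and 9.90%. The summed fibroblast markers were also highest there, at 4.15 and 5.09 TPM, as were the endothelial markers, at 2.08 and 2.17 TPM. The summed leukocyte markers were highest there in shRor1 but lowest there in shCTL. In every library the fibroblast sum lay below LOXL2, LOX and LOXL1 and above LOXL3 and LOXL4. The part of these measures in the levels of the members was not tested. With the third library of each condition left out, an alternative chosen after seeing the data, the log2 fold change of LOX was 0.38 and that of LOXL2 was -0.029.

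**Figure D4:**
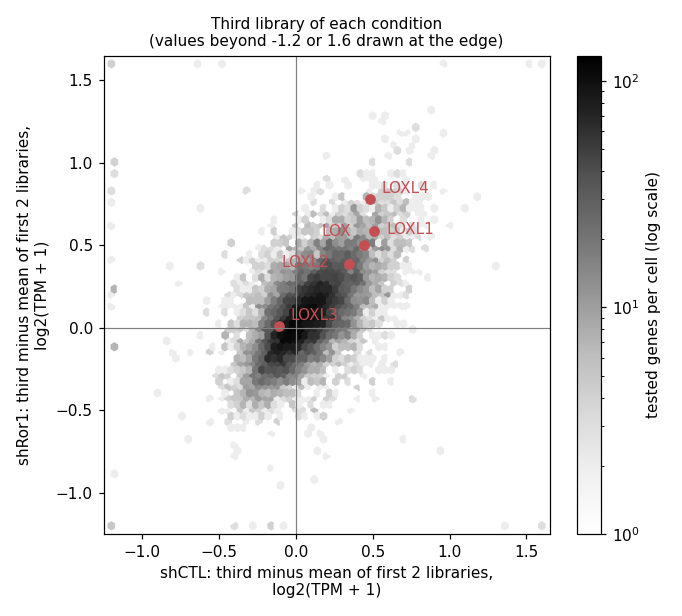
Difference between the third library and the mean of the first 2 on log2(TPM + 1), for shCTL (horizontal) and shRor1 (vertical), with all tested genes as grey cells and the 5 members in red. LOX, LOXL1, LOXL2 and LOXL4 lie above 0 on both axes, and LOXL3 lies near the origin.

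For each tested member, the genes with the most similar profile were taken by the root mean square difference of log2(TPM + 1), centred on the mean of each gene, over the 6 libraries. Closest to LOX was TGFA, a ligand of the EGF receptor, with a difference of 0.059, compared with 0.32 for the spread of LOX about its own mean. TGFA had 9.96, 7.23 and 11.9 TPM in shCTL and 11.6, 10.3 and 14.9 TPM in shRor1. It was followed by the pseudogene ANXA2P2 and the long non-coding RNA ENSG00000258919. Both were low, with 1.34 to 3.42 TPM and 0.33 to 1.57 TPM per library, where adding 1 to TPM compresses a profile. Closest to LOXL1 were PDGFRB, ZNF862 and TOM1L2, with differences from 0.048 to 0.057. PDGFRB, a receptor tyrosine kinase that is also a fibroblast marker, had at most 3.18 TPM. Closest to LOXL2 were PMM1, HERPUD1 and PLXNB2, with differences from 0.020 to 0.025. Closest to LOXL3 were ALAS1, CASP4 and NEU3, with differences from 0.026 to 0.028.

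Within the family, LOXL1 and LOXL2 were the most alike, with a difference of 0.11. In the ranking by likeness of all tested genes with a matched symbol, LOXL2 stood at place 190 for LOXL1, and LOXL1 at place 1191 for LOXL2. LOX had a difference of 0.24 to LOXL2 and 0.27 to LOXL1, and its nearest member, LOXL2, stood at place 3150. LOXL3 was further from the family by rank, with its nearest member, LOXL2, at place 9360 and a difference of 0.21. Since libraries of both conditions enter this measure, the higher values of the third libraries enter it as well.

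Genes around the family were then described in 6 lists with 78 genes, of which 60 were tested. None of the 60 had an unadjusted p below 0.05 in limma, set against 2.85% of all tested genes. Their median log2 fold change was 0.11 and 76.7% were above 0, compared with a median of 0.05 and 67.0% over all tested genes. Quantile and median ratio scaling moved the overall median to 0.0015 and 0.00056, so counts above 0 hold for TPM as deposited. The groups did not overlap for 2 of the 60, where the share over all genes was 7.78%. These were EFEMP2, a fibulin that binds pro-LOX to elastic fibres, with 1.03 ± 0.244 and 1.53 ± 0.220 TPM, and the collagen lysyl hydroxylase PLOD3, with 134.5 ± 2.57 and 148 ± 2.81 TPM (SD, n = 3 each, shCTL before shRor1). Both are named after their values were seen.

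Among the substrates, 6 of 13 listed collagens were tested, 5 with a log2 fold change above 0, where 67.0% of all tested genes were above 0. COL4A2, a chain of basement membrane collagen, had 59.2 ± 5.32 TPM in shCTL and 63.5 ± 8.97 TPM in shRor1 (SD, n = 3 each). The fibrillar chain COL5A1 had 20.8 ± 6.41 and 27.0 ± 8.93 TPM. Of the collagen chains abundant in fibroblasts, COL1A1 was detected with 7.25 to 13.87 TPM per library, while COL1A2 and COL3A1 stayed at or below 0.14 TPM. These chains are named because of this role. Of 16 elastic fibre and microfibril genes, 12 were tested and 11 were above 0. The most abundant were LTBP4, which binds latent TGF-beta, with 78.3 ± 17.3 and 82.4 ± 16.8 TPM, and the fibulin EFEMP1 with 34.4 ± 4.08 and 38.2 ± 8.46 TPM.

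For activation and copper supply, 8 of 11 genes were tested, 4 above and 4 below 0, where 67.0% of all tested genes were above 0. The copper chaperone ATOX1 had 146 ± 18.7 TPM in shCTL and 138.9 ± 20.4 TPM in shRor1 (SD, n = 3 each), and THBS1, a secreted matricellular glycoprotein, had 99.8 ± 12.5 and 93.2 ± 14.2 TPM. BMP1, the protease that cleaves pro-LOX, had 8.50 ± 1.33 and 10.1 ± 1.48 TPM, and is named because of this role. Of 16 genes for hydroxylation and folding of collagen, 15 were tested and 11 were above 0, led by PPIB with 766 ± 36.5 and 760.6 ± 44.2 TPM and by P4HB with 628 ± 56.8 and 674 ± 75.9 TPM. Of 8 other crosslinking enzymes and amine oxidases, 6 were tested, 4 above and 2 below 0. Transglutaminase TGM2 had 169 ± 16.8 and 148 ± 32.2 TPM, and PXDN, a peroxidase that crosslinks collagen IV, had 127 ± 26.9 and 158 ± 44.1 TPM, so that in these cells both means were of the same order as that of LOXL2.

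Of 14 hypoxia response genes, 13 were tested, 11 with a log2 fold change above 0 and a list median of 0.14. Over all tested genes, 67.0% were above 0 and the median was 0.05. LDHA had 1649.8 ± 135 TPM in shCTL and 1855 ± 399 TPM in shRor1, and PGK1, like LDHA an enzyme of glycolysis, had 953 ± 23.2 and 1096 ± 182 TPM (SD, n = 3 each). A single library decided the counts of the lists. With the first shRor1 library left out, 14 of the 60 genes had an unadjusted p below 0.05 (23.3%), 13 of them higher, where 10.4% of all tested genes did. These 14 held the hydroxylases PLOD1, PLOD2, P4HA1 and P4HA2, the hypoxia response genes BNIP3, NDRG1, PDK1, PGK1 and HIF1A, the matrix genes FN1, LTBP1 and MFAP2, the crosslinking enzyme PXDN and, in the opposite direction, TGM2. They are named after their values were seen, and none of the 60 had an adjusted p below 0.05 in that fit, in which the smallest over all genes was 0.432 (limma). In the same fit the log2 fold change of LOX was 0.47, with an adjusted p of 0.521 from limma, and that of LOXL2 was 0.0064.

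**Figure D5:**
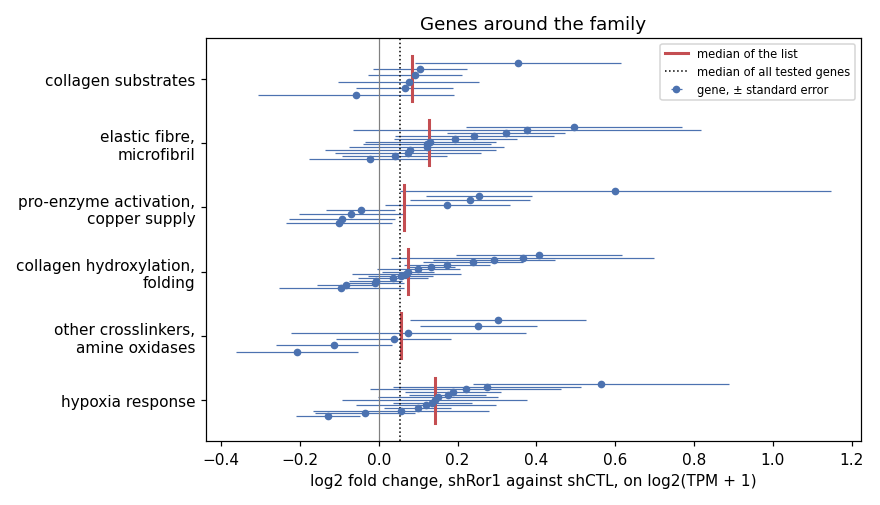
Log2 fold change of shRor1 against shCTL on log2(TPM + 1) for the 60 tested genes of 6 lists, each with its standard error, the median of each list (red) and the median of all tested genes (dotted). The list medians lie between 0.057 and 0.14, and the overall median is 0.05.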

How the data were processed

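RNA of 6 libraries of MDA-MB-231 cells (3 shCTL, 3 shRor1) was sequenced as single reads of 50 bases. As the authors' methods and the processing notes of the submitters state, reads were demultiplexed with CASAVA 1.8.2, checked with FastQC 0.10.0, mapped to GRCh37 with STAR and Ensembl 73, and gene abundances were estimated with RSEM 1.2.5. The authors deposited TPM per gene and library, although the table is named for expected counts. Columns sum to between 999999 and 1000001, so the values hold no read depth and no count model was fitted. All 6 value columns were used, and 0 were left out.

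The fit held the genes that reached 1 TPM in 3 or more libraries. A model with condition as the only term was fitted to log2(TPM + 1) with limma 3.58.1 (R 4.3.3, mean-variance trend, Benjamini-Hochberg adjustment at 0.05), after it was tested on simulated data. Single values were compared by exact two-sided permutation tests. Alternatives were another pseudocount, other filters, protein-coding genes only, other scalings, no trend and each library left out. Symbols matched 55022 of 57445 identifiers. Annotation was GENCODE 44 on GRCh37, later than that of the authors. Named genes were the members, genes overlapping them, ROR1, the 2 most abundant tested genes of each list, list genes with an unadjusted p below 0.05 in the fit to all libraries, and the 3 genes most alike to each tested member. Other list genes are named outside this rule, for their role or after their values were seen, as said beside them. The members, lists and tests were chosen with earlier results of these data known.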

Additional observations from a re-analysis of the deposited data

How the results depend on the processing

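The log2 fold change of a gene cannot differ from the main fit under other filters, with protein-coding genes only or with no trend. LOX kept a positive log2 fold change under all 14 alternatives, these included. It was between 0.22 and 0.54 when single libraries were omitted (0.22 without the second shCTL library, 0.23 without the third shRor1 library). Otherwise it ran from 0.33 to 0.42, and its adjusted p over all alternatives ran from 0.521 to 1 (limma). Its unadjusted p from limma was 0.0848 with all libraries. It was 0.0302 without the third shCTL library, the control library with the highest LOX level, and this was the only alternative below 0.05. Without the second shCTL library it was 0.273, and without the third shRor1 library 0.258. With each library left out, LOXL1 ran from -0.20 to 0.16, LOXL2 from -0.14 to 0.099, LOXL3 from -0.13 to 0.055 and LOXL4 from -0.20 to 0.22. LOXL1, LOXL2 and LOXL3 stayed below 0 under the other alternatives that gave a value. With other filters, protein-coding genes only and no trend, this sign was fixed in advance. The log2 difference of the family sum ran from -0.12 to 0.15 with each library left out. It was -0.0048 with quantile normalization, -0.038 with median ratio scaling and 0.22 without LOXL2. Genes passing the adjusted threshold numbered 0 to 1 with each library left out, and 1 without the third library of each condition. The gene was RPL39P3 in both fits. The number of listed genes at an unadjusted p below 0.05 was 0 to 14 with each library left out, highest without the first shRor1 library, and 1 each with no filter (PLOD3), with no mean-variance trend (EFEMP2) and without the third library of each condition (COL5A1), all named after their values were seen. The cause was not tested. No paired analysis was possible because no number links a column of the table to a numbered sample. The edgeR and DESeq2 fits were not run, since the table holds no counts. TPM holds no depth, which limits LOXL3 and LOXL4 most.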
